A study of Rattus norvegicus with 24 samples.

Results

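The libraries labelled as the vector line at 10 d were compared with those labelled as the vector line at 24 h, 3 against 3, chosen by sample title from the 24 RNA libraries of the series. All 24 came from PC12, a cell line grown from a rat adrenal tumour (pheochromocytoma), at passages 18 to 20 in medium with horse and fetal bovine serum. The labelled line of both groups is a stable line with the empty pcDNA3 vector. The other line of the study stably expresses α1ACT, the C-terminal protein of the P/Q-type calcium channel gene, and each labelled line has 4 times (6 h, 24 h, 3 d and 10 d). The labels state neither the event from which times are counted nor the promoter, and give no clone, and there was 1 stable line of each kind. Per the design text the 3 replicates are biological, with no word on separate cultures. The p-values therefore reflect only the spread within groups over the 24 libraries, which were fitted together, and that spread may be technical.

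The same 6 libraries carry another reading. The deposited files of the 10 d libraries are named as α1ACT at 3 d and those of the 24 h libraries as vector at 3 d, with the same replicate numbers, and file names differ from titles in 18 of the 24 libraries. By the labels, a difference given here is 10 d against 24 h within the vector line. By the file names, it is the α1ACT line against the vector line at 3 d. Both readings cannot be told apart by the transgene, since no row of the counts stands for human α1ACT. "10 d" and "24 h" below are the labels' names, "higher" and "lower" are for 10 d against 24 h, and every direction is equally α1ACT against vector under the file names.

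PC12 cells resemble chromaffin cells: they make and store catecholamines in dense-core vesicles. With nerve growth factor they leave the cell cycle and extend neurites, for which they need neurofilaments, microtubule proteins and adhesion molecules. α1ACT enters the nucleus and regulates transcription, and it has been studied for neurite growth and for cerebellar development.

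Defining markers of the labelled cell type were present. Th, tyrosine hydroxylase, the first enzyme of catecholamine synthesis, stood at 4780 to 5172 CPM (counts scaled to a common library size, with TMM factors) in the 6 libraries. Chgb, a granin of dense-core vesicles, stood at 8841 to 10261 CPM, and Ddc, Dbh, Slc18a1, Chga, Phox2a, Gata3 and Hand2 were detected in every one of these libraries. Counts on genes ranged from 10893364 to 14486248 per library, and a floor of 3 counts stood at 0.206 to 0.28 CPM. Vector 10 d replicate 2 stood apart in 10 genes that were at least 2-fold above both other replicates, against at most 6 such genes in any of the other 23 libraries. Libraries numbered 2 also had 10 to 35 genes at least 2-fold below both other replicates in each of the 8 groups, among them 26 at 24 h and 17 at 10 d. Where the call of a described gene ends without 1 library, values without it are given for many such cases, not for all.

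Of 9994 genes tested, 744 (7.44%) passed an adjusted p of 0.05 by edgeR's quasi-likelihood test, here termed called. Of these, 429 (4.29% of genes tested) were higher and 315 (3.15%) lower. Most differences were small: the median size among called genes was 0.35 on the log2 scale, and 38 genes (0.38%) differed by at least 2-fold, 26 higher and 12 lower. The libraries of both groups did not overlap in 2492 genes (24.9%), and 710 genes (7.1%) were both called and free of overlap. The number of calls moved strongly with single libraries. It was 314 in a fit of the 6 libraries alone, in which Rps16, Emb, Slc6a2 and Hspa5, all described below, were among the genes no longer called. It was 291 without 24 h replicate 1, 253 without 24 h replicate 3 and 306 without 10 d replicate 2, against 899 without 24 h replicate 2, 826 without 10 d replicate 1 and 665 without 10 d replicate 3. With each of the 6 libraries left out in turn, 181 genes were called every time, and 44 genes, 25 higher and 19 lower, were called in the same direction in all 18 settings tried.

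**Figure D1:**
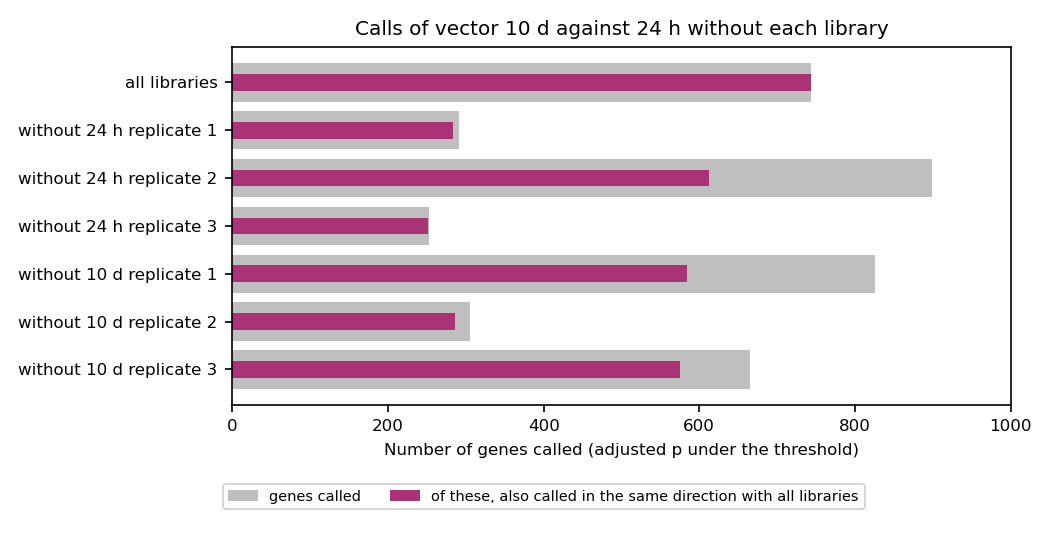
Number of genes called with all libraries and with each of the 6 libraries left out (grey bars, linear axis from 0), and how many of those calls were also made in the same direction with all libraries (purple bars). The count of 744 falls to 253 to 306 without 24 h replicate 1, 24 h replicate 3 or 10 d replicate 2.

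Cacna1a, the rat gene of the channel subunit from which α1ACT derives, did not separate the groups. It stood at 16.4, 15.6 and 18.7 CPM at 24 h and at 15.9, 20.9 and 14.8 CPM at 10 d. The groups overlapped, and the difference was 0.02 ± 0.11 (log2 fold change ± SE; adjusted p = 0.944). Earlier work named 3 more genes for α1ACT. Atp2b2, a calcium pump of the cell surface, and Grn, the progranulin gene, were not called, at 0.13 ± 0.09 and -0.03 ± 0.05. Btg1, an antiproliferative gene, was higher, with 113, 148 and 119 CPM at 24 h and 154, 200 and 165 CPM at 10 d. Its groups did not overlap, and its difference of 0.45 ± 0.10 had an adjusted p of 0.00684. That p was 0.059 without 24 h replicate 1, 0.0526 without 24 h replicate 3 and 0.0629 without 10 d replicate 2.

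Genes are ranked here by fold among called genes whose groups did not overlap and whose mean reached 2 CPM. The largest rise that was even across replicates was that of Hcn4, a pacemaker channel subunit opened by hyperpolarisation. Hcn4 stood at 4.82, 5.7 and 5.08 CPM at 24 h and at 16.5, 17.9 and 16.4 CPM at 10 d. Every 10 d library was far above every 24 h library, a 3.27-fold difference (1.71 ± 0.13; adjusted p = 9.13e-09). Ptger3, a receptor of prostaglandin E2, rose from 1.19, 1.68 and 1.92 CPM to 5.47, 4.21 and 5.15 CPM (1.63 ± 0.24; adjusted p = 0.000144). Rest, a repressor of neuronal genes outside neurons, rose from 1.63, 1.31 and 1.58 CPM to 3.28, 3.45 and 3.56 CPM (1.17 ± 0.24; adjusted p = 0.00379). Ppyr1, a receptor of pancreatic polypeptide, and Papss2, which makes the sulfate donor of sulfotransferases, rose by 1.30 ± 0.24 and 1.24 ± 0.21. Olfm2, a secreted olfactomedin protein, rose by 1.42 ± 0.23. These 6 genes had no overlap between groups and were called without each single library. Penk, the proenkephalin gene, stood at 1.11, 1.77 and 1.3 CPM at 24 h and 2.81, 3.45 and 4.09 CPM at 10 d (1.33 ± 0.35; adjusted p = 0.0223). Its adjusted p was 0.111 without 24 h replicate 1, 0.0969 without 24 h replicate 3, 0.064 without 10 d replicate 2 and 0.078 without 10 d replicate 3.

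Of the 12 largest rises, 3 rested on 10 d replicate 2. Rps16, a protein of the small ribosomal subunit, stood at 50.7, 68.4 and 53.7 CPM at 24 h and at 77.1, 396 and 113 CPM at 10 d. Its difference of 1.76 ± 0.35 (adjusted p = 0.0031) became 0.73 without that library (adjusted p = 0.0469). Emb, the adhesion protein embigin, stood at 40.4, 40.7 and 39.6 CPM against 56.7, 161 and 58.1 CPM, and its 1.19 ± 0.24 (adjusted p = 0.00302) became 0.52 (adjusted p = 0.00575). Ogdh, a subunit of the oxoglutarate dehydrogenase of mitochondria, stood at 32, 30.7 and 35 CPM against 35.6, 145 and 42.5 CPM. Its 1.18 ± 0.31 became 0.26, with an adjusted p of 0.413, and was no longer called; it was also lost without 24 h replicate 1 (0.0755) or 24 h replicate 3 (0.0661). In all 3 genes the other two 10 d libraries still stood above all 24 h libraries. Ribosomal protein genes have near-identical copies, so reads of Rps16 may be split or shared.

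The largest fall was that of Mmp13, a collagenase that cuts extracellular matrix. Mmp13 stood at 259, 85.3 and 260 CPM at 24 h and at 42.3, 23.7 and 39.9 CPM at 10 d. Replicate 2 was the lowest of each group, yet the groups did not overlap, and the difference was 5.72-fold (-2.52 ± 0.46; adjusted p = 0.00132). It stayed between -2.87 and -2.29 without any 1 of the 6 libraries. Ntn1, the axon guidance cue netrin-1, fell from 8.52, 6.54 and 9.19 CPM to 2.97, 5.05 and 3.71 CPM (-1.07 ± 0.20; adjusted p = 0.00152). S100a3, a small calcium-binding protein, fell from 28.3, 20 and 26.2 CPM to 15, 11.7 and 12 CPM (-0.95 ± 0.12; adjusted p = 2.34e-05). Gem, a small GTP-binding protein that inhibits calcium channels, fell from 9.19, 6.63 and 7.89 CPM to 4.45, 3.45 and 4.77 CPM (-0.91 ± 0.18). These 4 genes were called without each single library. Among the other large falls, Crabp1, Dysf, Gjb5, Mxd3, LOC683613, PCOLCE2 and Pitx1 differed by -1.15 to -0.86, and each of these 7 lost its call without at least 1 library. Among them, the adjusted p of Dysf was 0.0717 without 10 d replicate 2, that of Gjb5 0.142 without 24 h replicate 3, that of Crabp1 0.149 without 24 h replicate 1 and that of Pitx1 0.0626 without 24 h replicate 3.

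**Figure D2:**
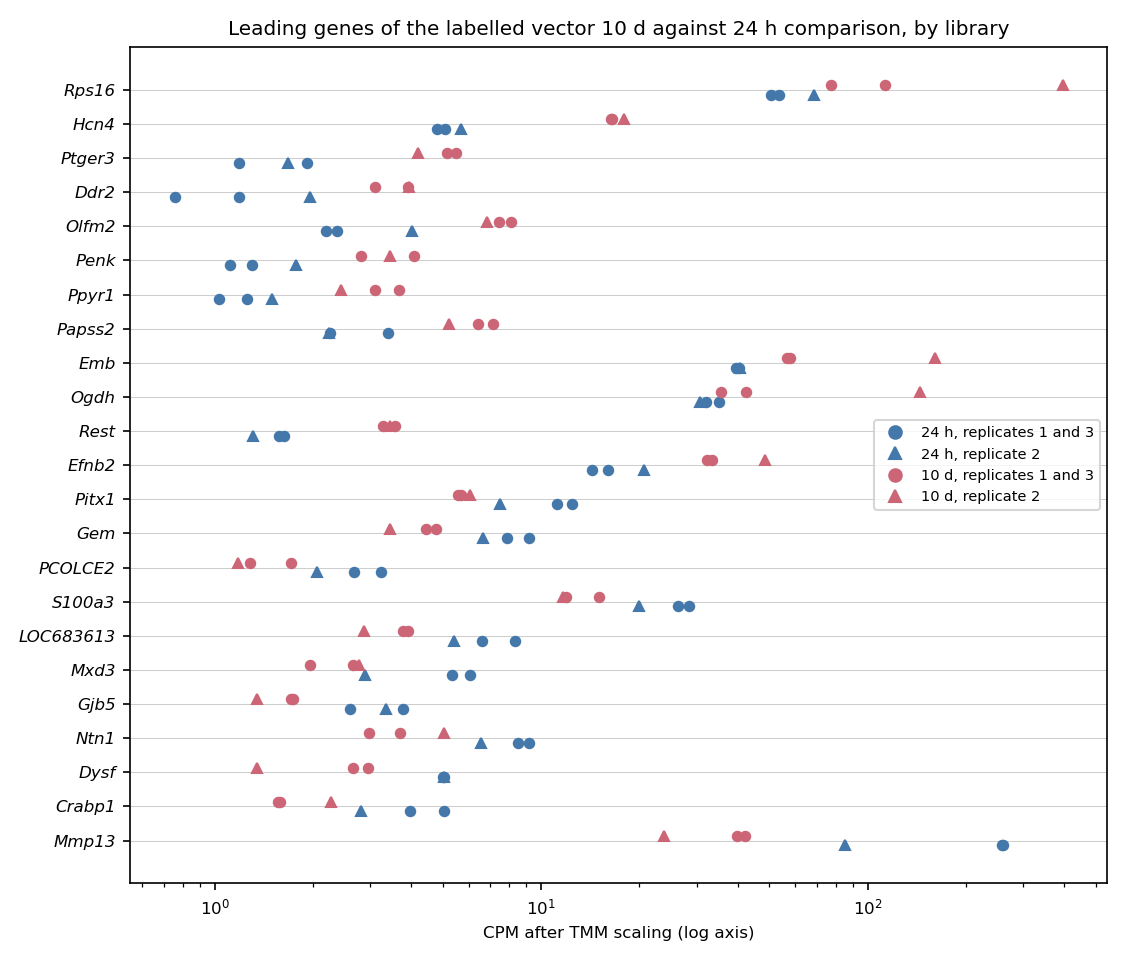
CPM after TMM scaling (log axis) of the 12 genes that rose most and 11 of the 12 that fell most, one point per library, with 24 h in blue, 10 d in red and replicate 2 of each group as a triangle. Rps16, Emb and Ogdh have 1 red triangle far to the right of the other points, whereas the 3 points of each group lie close together for Hcn4.

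The gene lists here and below were chosen with earlier results of these data known, and no list was tested as a set. Of 29 tested genes of neurites and neuronal structure, 11 (37.9%, against 4.29% of all genes tested) were higher, 18 were not called and none was lower. The median difference over the list was 0.19 against -0.01 over all genes tested. Nefm, the medium neurofilament subunit, stood at 61.6, 58.3 and 56.1 CPM at 24 h and at 88.8, 106 and 85.1 CPM at 10 d. All 10 d libraries lay above all 24 h libraries (0.67 ± 0.10; adjusted p = 0.000293). Nefl, the light subunit, stood at 129, 114 and 127 CPM against 187, 141 and 190 CPM (0.49 ± 0.08; adjusted p = 0.000871). Stmn2, a microtubule-destabilising protein of growth cones, stood at 287, 338 and 304 CPM against 389, 434 and 385 CPM (0.38 ± 0.05; adjusted p = 7.93e-05). Map1b, a microtubule-associated protein of growing axons, and Ncam1, the neural cell adhesion molecule, rose by 0.39 ± 0.08 and 0.30 ± 0.06. These 5 were called without each single library. The other 6 called members were Atf3, L1cam, Elavl4, Map1a, Nrcam and Tubb3, with differences of 0.27 to 0.72, and each lost its call without at least 1 library (Atf3 without 24 h replicate 1, at an adjusted p of 0.0638; L1cam without 24 h replicate 3, at 0.0681). The count of 11 became 6 without 24 h replicate 1 or 24 h replicate 3, 8 without 10 d replicate 2 or 10 d replicate 3, 9 without 24 h replicate 2 and 10 without 10 d replicate 1.

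Axon guidance genes moved both ways. Of 25 tested, 4 were higher (16%) and 1, Ntn1, was lower (4%), against 4.29% and 3.15% of all genes tested. The count of 4 became 2 without 24 h replicate 1 or 10 d replicate 2. Efnb2, a membrane-bound ligand of Eph receptors, stood at 14.4, 20.7 and 16.1 CPM at 24 h and at 33.3, 48.5 and 32.3 CPM at 10 d (1.17 ± 0.15; adjusted p = 2.34e-05). Odz4, a teneurin adhesion protein, stood at 23.3, 16.3 and 19.8 CPM against 41.4, 38.5 and 42.8 CPM (1.04 ± 0.13; adjusted p = 2.3e-05). Neither gene overlapped between groups, and both were called in all 18 settings. The other called members were less stable. Efna1, another ephrin, differed by 0.28 ± 0.07 and lost its call without 24 h replicate 1 (0.0747), 24 h replicate 3 (0.109) or 10 d replicate 2 (0.144). Plxna2, a semaphorin receptor, differed by 0.59 ± 0.16 and lost its call without 24 h replicate 1 (0.105), 24 h replicate 2 (0.0542), 10 d replicate 1 (0.0519) or 10 d replicate 2 (0.0569). Of 19 receptors of neurotrophic factors and related genes, the co-receptors Gfra1 and Gfra2 were higher and Sort1, the sorting receptor sortilin, was lower. These made up 10.5% and 5.26% of the 19, against 4.29% and 3.15% of all genes tested. Gfra1, which binds glial cell line-derived neurotrophic factor, stood at 6.15, 6.72 and 5.83 CPM against 11, 10.6 and 10.4 CPM (0.78 ± 0.15; adjusted p = 0.00288). Sort1 stood at 56.7, 37.7 and 53.2 CPM against 26, 32.6 and 32 CPM (-0.71 ± 0.11; adjusted p = 0.000304). Gfra2 differed by 1.08 ± 0.27 and lost its call without 24 h replicate 1 (0.0676), 10 d replicate 1 (0.0507) or 10 d replicate 3 (0.0599).

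Of 23 potassium channel genes, Kcnq5 and Kcnh1 were higher and Kcnn3 and Kcnc4 lower (8.7% each way, against 4.29% and 3.15% of all genes tested). Kcnq5, a subunit of the M-current, stood at 28.3, 31.7 and 30.3 CPM at 24 h and at 45.6, 48.7 and 42.8 CPM at 10 d (0.60 ± 0.09; adjusted p = 0.000241). Kcnh1 rose by 0.81 ± 0.16, and both were called without each single library. Kcnn3 and Kcnc4 differed by -0.30 ± 0.07 and -0.59 ± 0.16. Both lost their call without 24 h replicate 1 (0.107 and 0.113), 24 h replicate 3 (0.0842 and 0.122) or 10 d replicate 1 (0.0641 and 0.103), Kcnn3 also without 10 d replicate 2 (0.0863) and Kcnc4 without 10 d replicate 3 (0.0854). Of 27 genes of calcium channels and calcium handling, 2 were higher (7.41%, against 4.29% of all genes tested) and none lower. They were Cacnb4 and Cacna2d1, both auxiliary channel subunits, at 0.83 ± 0.24 and 0.25 ± 0.07. Both lost their call without 24 h replicate 1 (0.195 and 0.145), 24 h replicate 3 (0.127 and 0.113) or 10 d replicate 2 (0.169 and 0.224), and Cacnb4 also without 10 d replicate 3 (0.0608).

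Genes of the catecholamine machinery moved both ways. Of 19 tested genes, 3 were higher (15.8%) and 5 lower (26.3%), against 4.29% and 3.15% of all genes tested, with a list median of -0.00. Ddc, which makes dopamine from L-DOPA, stood at 1443, 1147 and 1386 CPM at 24 h and at 999, 927 and 1067 CPM at 10 d (-0.41 ± 0.06; adjusted p = 0.000249). Slc18a1, the vesicular monoamine transporter of chromaffin cells, stood at 1354, 1339 and 1246 CPM against 930, 888 and 1012 CPM (-0.48 ± 0.11; adjusted p = 0.00657). Both groups were apart in both genes, and both calls held without each single library. Gch1, which limits synthesis of the cofactor tetrahydrobiopterin, differed by -0.50 ± 0.12, with an adjusted p of 0.0523 without 24 h replicate 3. Cyb561 and Isl1 were lower by smaller steps, at -0.22 ± 0.05 and -0.33 ± 0.10, and both lost their call without 24 h replicate 1 (0.0509 and 0.15), 24 h replicate 3 (0.0619 and 0.118) or 10 d replicate 2 (0.0687 and 0.182). Isl1 was also lost without each of the other 3 libraries (0.0504 to 0.0717). Th itself differed by 0.03 ± 0.05 and was not called (adjusted p = 0.785). Slc6a2, the noradrenaline transporter of the cell surface, was higher, with 220, 226 and 209 CPM against 251, 340 and 259 CPM (0.38 ± 0.07; adjusted p = 0.0026). Gata3, a transcription factor of the sympathoadrenal lineage, was higher by 0.63 ± 0.14 and lost its call without 24 h replicate 3 (0.066) or 10 d replicate 2 (0.0646).

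Vesicle and prohormone genes also moved both ways. Of 31 synaptic and exocytosis genes, 4 were higher (12.9%) and 3 lower (9.68%), against 4.29% and 3.15% of all genes tested. Sytl4, granuphilin, which docks dense-core granules, stood at 191, 129 and 189 CPM at 24 h and at 98.3, 91.9 and 105 CPM at 10 d (-0.79 ± 0.09; adjusted p = 1.7e-05). Syn2, a synapsin of small vesicles, stood at 56.6, 62.9 and 55.6 CPM against 86.2, 101 and 81.6 CPM (0.62 ± 0.07; adjusted p = 1.75e-05). Both were called in all 18 settings, and Rph3al, an effector of Rab3 and Rab27, differed by -0.26 ± 0.05 and was called without each single library. The other called members, Syt9, Rab27a and Vamp2 among the higher and Vamp1 among the lower, were not called without 24 h replicate 1 (0.0689 to 0.126), 24 h replicate 3 (0.066 to 0.118) or 10 d replicate 2 (0.125 to 0.437). Of 12 granin and prohormone genes, Pam and Penk were higher and Chga and Ptprn2 lower (16.7% each way, against 4.29% and 3.15% of all genes tested). Ptprn2, a receptor-like protein of secretory granules, differed by -0.17 ± 0.05 (adjusted p = 0.0448). It was not called without 24 h replicate 1 (0.225), 24 h replicate 3 (0.1), 10 d replicate 1 (0.0809), 10 d replicate 2 (0.119) or 10 d replicate 3 (0.108), nor with RLE factors (0.0546) or library sizes alone (0.0533). Pam, which amidates peptides, differed by 0.31 ± 0.05 and kept its call without each single library. Chga, chromogranin A, differed by -0.36 ± 0.10, with an adjusted p of 0.0284. It was not called without 24 h replicate 1 (0.137), 24 h replicate 3 (0.0949), 10 d replicate 1 (0.0809) or 10 d replicate 2 (0.119).

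Of 36 tested chaperones of the endoplasmic reticulum and genes of the unfolded protein response, 9 were higher (25%) and 1 was lower (2.78%), 26 were not called, and the list median was 0.10. The shares over all genes tested were 4.29% higher and 3.15% lower. Hsp90b1, the HSP90 of the endoplasmic reticulum, stood at 452, 507 and 485 CPM at 24 h and at 613, 854 and 634 CPM at 10 d (0.54 ± 0.09; adjusted p = 0.000591). Hspa5, the chaperone BiP, stood at 1876, 2777 and 2108 CPM against 3074, 3261 and 2854 CPM (0.44 ± 0.09; adjusted p = 0.00413). In both, the lowest 10 d library was above the highest 24 h library. Hsp90b1, Hspa5 and Dnajb2 (0.35 ± 0.07) were called without each single library; Hspa5 was not called in a fit of the 6 libraries alone (0.0753). The other called members, Sel1l, Dnajb9, Ern1, Pdia3, Hyou1 and Xbp1, differed by 0.14 to 0.35 and each lost its call without 24 h replicate 1 (0.0646 to 0.205) or 24 h replicate 3 (0.0602 to 0.124). Ero1l, an oxidase that drives disulfide bonds, went the other way, with 167, 152 and 172 CPM against 121, 108 and 115 CPM (-0.51 ± 0.08; adjusted p = 0.000249). The count of 9 higher became 3 without 24 h replicate 1 or 24 h replicate 3 and in the fit of the 6 libraries alone, 4 without 10 d replicate 2, 6 without 10 d replicate 1 and 14 without 24 h replicate 2. Of 40 genes of the integrated stress response, 4 were higher (10%, against 4.29% of all genes tested) and none lower. Chac1, which breaks down glutathione, differed by 0.45 ± 0.10 (adjusted p = 0.00643, and 0.0518 without 24 h replicate 1). Slc7a5, Cth and Sesn2, the other 3, each lost its call without 24 h replicate 1 (0.106 to 0.204), 24 h replicate 3 (0.0967 to 0.198) or 10 d replicate 2 (0.0588 to 0.205).

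Of 36 tested interferon and antigen presentation genes, 7 were lower (19.4%) and 1 was higher (2.78%), against 3.15% and 4.29% of all genes tested. The other 28 were not called, and the list median was -0.09. Ifi44, an interferon-induced gene, stood at 69.8, 57.1 and 73.3 CPM at 24 h and at 45.7, 41.1 and 45.6 CPM at 10 d, with no overlap (-0.60 ± 0.08; adjusted p = 3.86e-05). Psmb10, a subunit of the immunoproteasome, stood at 35.8, 33 and 32.2 CPM against 26, 22.5 and 25.6 CPM (-0.44 ± 0.08; adjusted p = 0.00147). Tapbp, tapasin, which loads peptides onto MHC class I, stood at 150, 144 and 148 CPM against 125, 117 and 113 CPM (-0.32 ± 0.05; adjusted p = 0.000169). These 3 were called without each single library. The others, Parp14, Parp9, Ifitm2 and Ifih1, differed by -0.58 to -0.22 and were not called without 24 h replicate 1 (0.0659 to 0.179), 24 h replicate 3 (0.079 to 0.106) or 10 d replicate 2 (0.0922 to 0.133). Bst2, tetherin, was higher by 0.72 ± 0.22 and lost its call in 4 of the 6 single leave-outs, with the largest adjusted p, 0.29, without 10 d replicate 2. The count of 7 became 3 without 24 h replicate 1, 24 h replicate 3 or 10 d replicate 2.

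The number of DNA replication genes called moved with single libraries. Of 43 tested, 6 were lower (14%, against 3.15% of all genes tested) and none higher, with a list median of -0.20 and 38 of 43 below 0. E2f1, which drives entry into S phase, stood at 121, 90.2 and 110 CPM at 24 h and at 76.4, 86.5 and 92.3 CPM at 10 d; the groups overlapped (-0.33 ± 0.09; adjusted p = 0.0264). Cdc6, which loads the replicative helicase, stood at 23.5, 19.9 and 24.4 CPM against 14.4, 17.1 and 16.6 CPM (-0.50 ± 0.14; adjusted p = 0.0316). Replicate 2 was the lowest 24 h library in both genes. Both lost their call without 24 h replicate 1 (0.204 and 0.123), 24 h replicate 3 (0.111 and 0.144), 10 d replicate 1 (0.124 and 0.115) or 10 d replicate 2 (0.0742 and 0.0711), and Cdc6 also without 10 d replicate 3 (0.0587). The count of 6 became 0 without 24 h replicate 1, 24 h replicate 3 or 10 d replicate 1, 1 without 10 d replicate 2, 3 without 10 d replicate 3 and 16 without 24 h replicate 2. With replicate number 2 left out of all 8 groups it became 28, and with number 1 or number 3 left out in that way it became 0. None of 29 mitosis genes and none of 21 histone genes was called. Gadd45a, a stress sensor of the cell cycle, stood at 21.3, 31.5 and 28.7 CPM against 43.6, 46.4 and 43.5 CPM (0.72 ± 0.14; adjusted p = 0.00191), and it was called without each single library. Of 21 genes of G1 cyclins and cyclin-dependent kinase inhibitors, 3 were higher (14.3%) and 2 lower (9.52%), against 4.29% and 3.15% of all genes tested. Cdkn1a, the cyclin-dependent kinase inhibitor p21, differed by 0.42 ± 0.12 and lost its call without any 1 library other than 10 d replicate 2 (0.0526 to 0.113).

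Of 26 matrix, adhesion and contractile genes, 3 were lower (11.5%, against 3.15% of all genes tested) and none higher. Among the 3 were Mmp13 and Lgals1, a galectin (-0.26 ± 0.07). Lgals1 was not called without 24 h replicate 1 (0.211), 24 h replicate 3 (0.129) or 10 d replicate 2 (0.182). None of 35 genes of sterol and fatty acid synthesis and none of 19 feedback genes of ERK signalling was called. Lpl, lipoprotein lipase, stood at 1779, 1678 and 1803 CPM at 24 h and at 1315, 1325 and 1329 CPM at 10 d. The 3 libraries of each group lay close together (-0.41 ± 0.05; adjusted p = 1.75e-05), and the call held in all 18 settings. Called ribosomal protein genes were 2 of 65, both higher (3.08%), and 1 each way of 64 mitochondrial ones (1.56%). Of 51 genes of oxidative phosphorylation, 3 were higher (5.88%) and 2 lower (3.92%). Over all genes tested, 4.29% were higher and 3.15% lower. Outside the lists, and chosen after their values were seen for being called in all 18 settings, Cdh2, N-cadherin, stood at 32.2, 28.6 and 38.6 CPM against 51.9, 57.4 and 57.5 CPM. It differed by 0.74 ± 0.12 (adjusted p = 0.000697). Maged2, a MAGE family gene, chosen in the same way, stood at 336, 274 and 307 CPM against 213, 177 and 224 CPM (-0.58 ± 0.07; adjusted p = 3.57e-05).

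**Figure D3:**
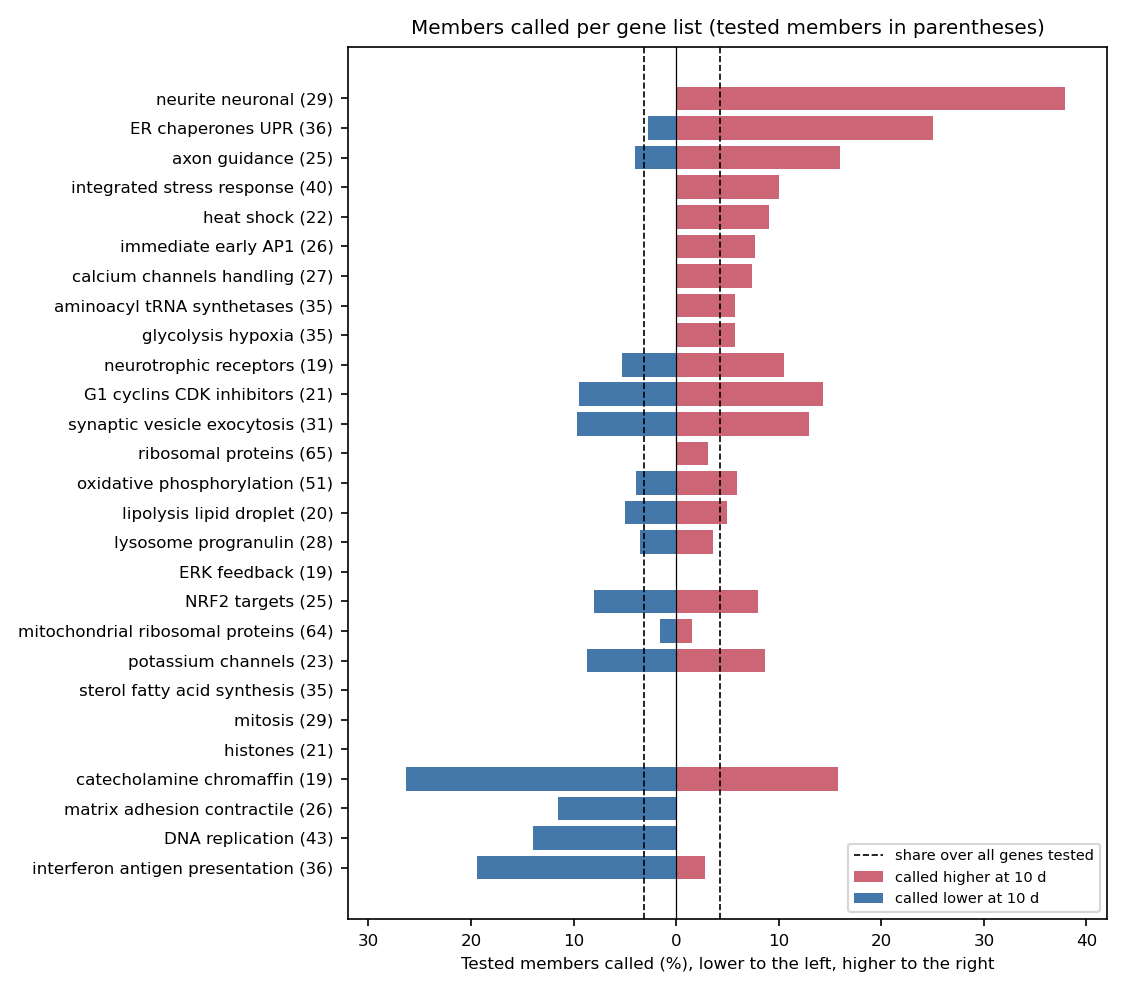
Share of tested members called higher (red, to the right) and lower (blue, to the left) for gene lists with at least 15 tested members, with the number tested in parentheses and dashed lines at the share over all genes tested (4.29% and 3.15%). The neurite list reaches 37.9% higher and the catecholamine list 26.3% lower.

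None of 7 tested epithelial, 3 fibroblast or 2 endothelial markers was called. Summed over the list, epithelial markers stood at 685 to 719 CPM at 24 h and 709 to 742 CPM at 10 d, and fibroblast markers, mostly Thy1, which neurons also express, at 710 to 761 and 781 to 829 CPM. Endothelial markers summed to 3.57 to 4.2 CPM at 24 h and 1.72 to 2.44 CPM at 10 d, with Kdr and Cldn5 at 0 in all 6 libraries. Immune markers summed to 2.15 to 3.22 CPM and 3.18 to 3.95 CPM, and Ptprc, Aif1, Itgam and Tyrobp were listed at 0. Cd68 was called (0.77 ± 0.24; adjusted p = 0.0488) but not without 24 h replicate 1 (0.202), 24 h replicate 2 (0.0878), 24 h replicate 3 (0.0684), 10 d replicate 1 (0.0638) or 10 d replicate 2 (0.27). Of 4 tested Schwann and glial markers, Pmp22, a myelin protein that other cells make too, was higher. It stood at 8.37, 10.3 and 8.99 CPM against 17.6, 19.3 and 16.5 CPM (0.96 ± 0.11; adjusted p = 1.7e-05), while the list's sum was 68.8 to 72.6 CPM against 72.2 to 76 CPM and Sox10 and Fabp7 were listed at 0. A listed 0 need not mean no RNA, since Rpl7a and Rpl8, ribosomal protein genes that every cell uses, were listed at 0 too. In bulk RNA, fewer cells of a type and less RNA per cell cannot be told apart.

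Promoters of members that moved together are shown for the interferon, endoplasmic reticulum and stress response lists. Sequences are from RefSeq (build GRCr8, not the rn5 build of the counts), 250 bases before the annotated start of each gene, written 5′ to 3′ on the gene's strand, with motif matches on either strand in capitals. Of the 9994 genes tested, 8105 matched a promoter by symbol or synonym. The interferon element was searched as TTTCNNTTT, and the windows searched ran from 250 bases before to 50 after the start. It was found in 6 of 7 called-lower interferon members (85.7%), in 64.3% of the list's 28 promoters, in 12.4% of all called-lower genes, in 5.42% of called-higher genes and in 7.19% of all tested genes. Ifi44 (chr2:243303841-243304090, minus strand), Tapbp (chr20:4967878-4968127, minus strand) and Psmb10 (chr19:50743293-50743542, minus strand) are the called members of smallest p that hold it. Each has 2 matches in the bases shown, and those of Tapbp overlap.
Ifi44: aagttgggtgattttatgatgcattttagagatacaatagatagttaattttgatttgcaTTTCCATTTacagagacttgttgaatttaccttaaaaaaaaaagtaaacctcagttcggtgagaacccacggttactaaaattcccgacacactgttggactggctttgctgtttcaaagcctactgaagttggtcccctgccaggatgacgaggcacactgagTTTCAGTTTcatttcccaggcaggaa
Tapbp: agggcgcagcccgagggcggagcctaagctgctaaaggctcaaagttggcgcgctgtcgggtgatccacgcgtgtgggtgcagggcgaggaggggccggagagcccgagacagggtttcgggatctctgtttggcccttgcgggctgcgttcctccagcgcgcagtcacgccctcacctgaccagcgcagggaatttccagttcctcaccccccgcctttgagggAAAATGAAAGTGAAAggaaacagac
Psmb10: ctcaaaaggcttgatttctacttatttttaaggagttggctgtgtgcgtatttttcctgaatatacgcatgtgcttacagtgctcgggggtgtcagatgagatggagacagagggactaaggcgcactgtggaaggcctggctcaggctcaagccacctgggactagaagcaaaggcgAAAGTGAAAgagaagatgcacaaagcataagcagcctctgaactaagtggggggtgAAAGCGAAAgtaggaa

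Among the genes that rose, Chac1 (chr3:126795881-126796130, plus strand) is shown for its amino acid response element. That element was searched as TGATGNAAN and as TTGCATCA, which overlap in the Chac1 match. They were found in 25% and 16.7% of the 36 promoters of the stress response list and in 2.02% and 0.58% of all tested genes. Of the 4 called-higher members of the stress response list, 1 (25%), Chac1, held each form. All called-higher genes held them in 3.31% and 1.81%. Hsp90b1 (chr7:23012294-23012543, minus strand) and Hspa5 (chr3:38452766-38453015, plus strand) are shown for the endoplasmic reticulum stress element, CCAAT followed by 9 bases and CCACG, a search chosen after the values were seen. It was found in 3 of the 7 called-higher members of that list with a matched promoter (42.9%), in 33.3% of its 27 promoters, in 1.2% of all called-higher genes and in 0.2% of all tested genes. Hsp90b1 has 2 matches in the bases shown and Hspa5 has 1. A match is a run of letters, not a tested binding site, and these lists hold such elements whether or not their members were called.
Chac1: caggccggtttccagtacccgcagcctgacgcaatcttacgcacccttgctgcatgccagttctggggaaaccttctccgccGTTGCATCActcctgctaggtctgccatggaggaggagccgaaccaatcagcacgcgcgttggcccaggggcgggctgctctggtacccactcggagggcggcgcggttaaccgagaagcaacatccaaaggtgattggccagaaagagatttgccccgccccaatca
Hsp90b1: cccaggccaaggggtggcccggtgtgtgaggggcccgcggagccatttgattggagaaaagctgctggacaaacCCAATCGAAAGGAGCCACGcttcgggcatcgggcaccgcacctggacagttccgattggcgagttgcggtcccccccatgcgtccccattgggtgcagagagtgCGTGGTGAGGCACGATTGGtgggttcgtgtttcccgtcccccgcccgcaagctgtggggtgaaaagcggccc
Hspa5: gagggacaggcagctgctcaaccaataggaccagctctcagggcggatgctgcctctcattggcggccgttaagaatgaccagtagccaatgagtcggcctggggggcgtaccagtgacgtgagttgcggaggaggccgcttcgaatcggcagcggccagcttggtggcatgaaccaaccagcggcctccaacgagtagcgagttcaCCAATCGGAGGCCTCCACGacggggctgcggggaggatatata

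The 6 libraries stood apart from the other 18 in many genes irrespective of the 10 d against 24 h difference. In 997 of the 9994 tested genes all 6 were above, and in 1077 all 6 were below, every other library. Of the 997, 102 were called here, and of the 1077, 55 were, against 744 of all 9994 (7.44%). Odz4 stood at 16.3 to 42.8 CPM in the 6 libraries and at 0.797 to 3.42 CPM in the other 18. Ddr2, a receptor tyrosine kinase for collagen, stood at 1.19, 1.96 and 0.755 CPM at 24 h and at 3.91, 3.95 and 3.1 CPM at 10 d (1.54 ± 0.30; adjusted p = 0.0031). In the other 18 libraries Ddr2 lay between 0 and 0.253 CPM, so it could not be followed there. Slc7a11, the cystine transporter, and Atf5, a stress-responsive transcription factor, stood at 347 to 483 and 1324 to 1424 CPM in the 6 libraries, against 4.72 to 169 and 87.1 to 505 CPM in the rest. Neither was called between 10 d and 24 h (0.24 ± 0.18 and 0.04 ± 0.17). By root mean square difference of log2 CPM, the 24 h and 10 d vector groups were 0.222 apart, and the nearest other group was 0.507 away from 24 h and 0.541 from 10 d. Such close pairs were not particular to these libraries. Vector 6 h and 3 d were 0.194 apart, α1ACT 6 h and 3 d 0.185, and α1ACT 24 h and 10 d 0.215.

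**Figure D4:**
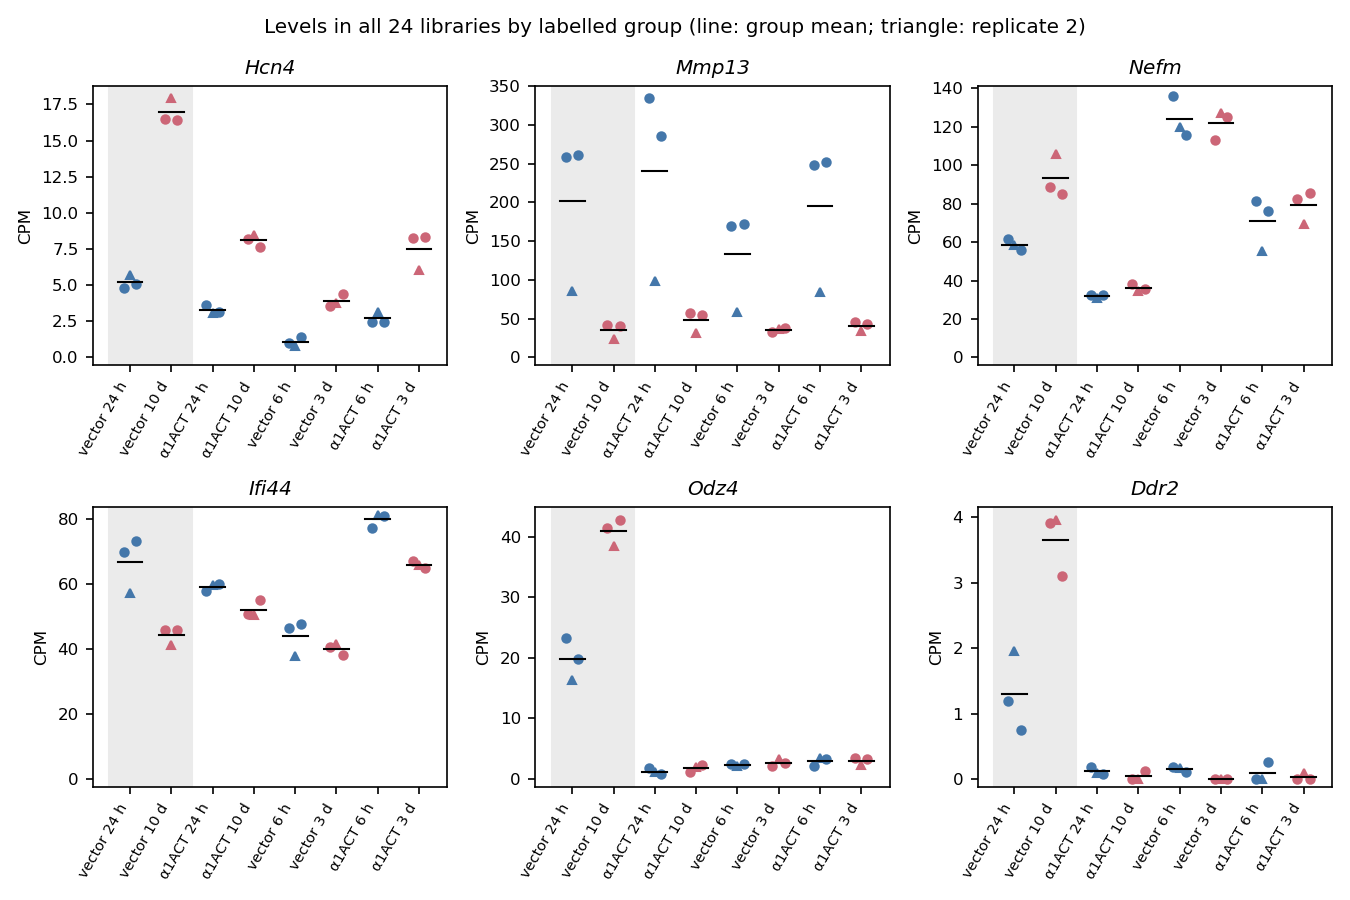
CPM (linear axis) of 6 genes in all 24 libraries by labelled group, with the line at the group mean, triangles for replicate 2 and the 2 vector groups compared here shaded. Odz4 and Ddr2 are high in the shaded groups alone; Hcn4 is higher and Mmp13 lower in the second group of each of the 4 pairs.

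A further 3 pairs of groups have the same form and share no library with these 6: α1ACT 10 d against 24 h, vector 3 d against 6 h and α1ACT 3 d against 6 h. By the file names, all 4 pairs set the α1ACT line against the vector line, each at 1 time. Of genes called in both comparisons, the same direction was found for 90 with α1ACT 10 d against 24 h, 57 with vector 3 d against 6 h and 68 with α1ACT 3 d against 6 h. The genes called in both, either direction, made up 12.4%, 7.93% and 9.14% of the 744 called here. They were 19.9%, 40.1% and 64.2% of the 462, 147 and 106 genes called in those pairs (4.62%, 1.47% and 1.06% of genes tested). Those pairs had 2.21%, 1.14% and 0.8% of genes tested called higher and 2.41%, 0.33% and 0.26% called lower. Of the 744, 434 (58.3%) had the same sign in all 4 pairs, as did 27.8% of all genes tested, and 609 were called here and in no other pair.

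In all 4 pairs 26 of the 9994 genes tested were called in the same direction, 23 higher and 3 lower. Hcn4 differed by 1.71 ± 0.13 here and by 1.31, 1.88 and 1.48 in α1ACT 10 d, vector 3 d and α1ACT 3 d against their earlier groups. Mmp13 differed by -2.52 ± 0.46 here and by -2.33, -1.92 and -2.26 there, Ntn1 by -1.07 ± 0.20 against -1.06, -1.06 and -0.78, and Sytl4 by -0.79 ± 0.09 against -0.46, -0.36 and -0.53. Among the 23 that were higher, Gfra1 and Gfra2 are co-receptors of the GDNF family, and Stmn2, L1cam and Cdh2 belong to growth cones or cell adhesion. Syn2 and Slc18a3, the vesicular acetylcholine transporter, belong to synaptic vesicles. Others of the 23 lie outside these groups, among them Ptger3, Papss2, Ppyr1 and Pmp22. Slc18a3 stood at 10, 8.03 and 10 CPM at 24 h and at 17.6, 14.4 and 16.2 CPM at 10 d (0.77 ± 0.16; adjusted p = 0.00405), and differed by 0.55, 0.71 and 0.78 in the other pairs. Of the 26 genes, 18 were called here without each single library; 8, Sqrdl, Gfra2, A4galt, S100a5, Elmod1, Fgfr3, Nsg2 and L1cam, were not.

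**Figure D5:**
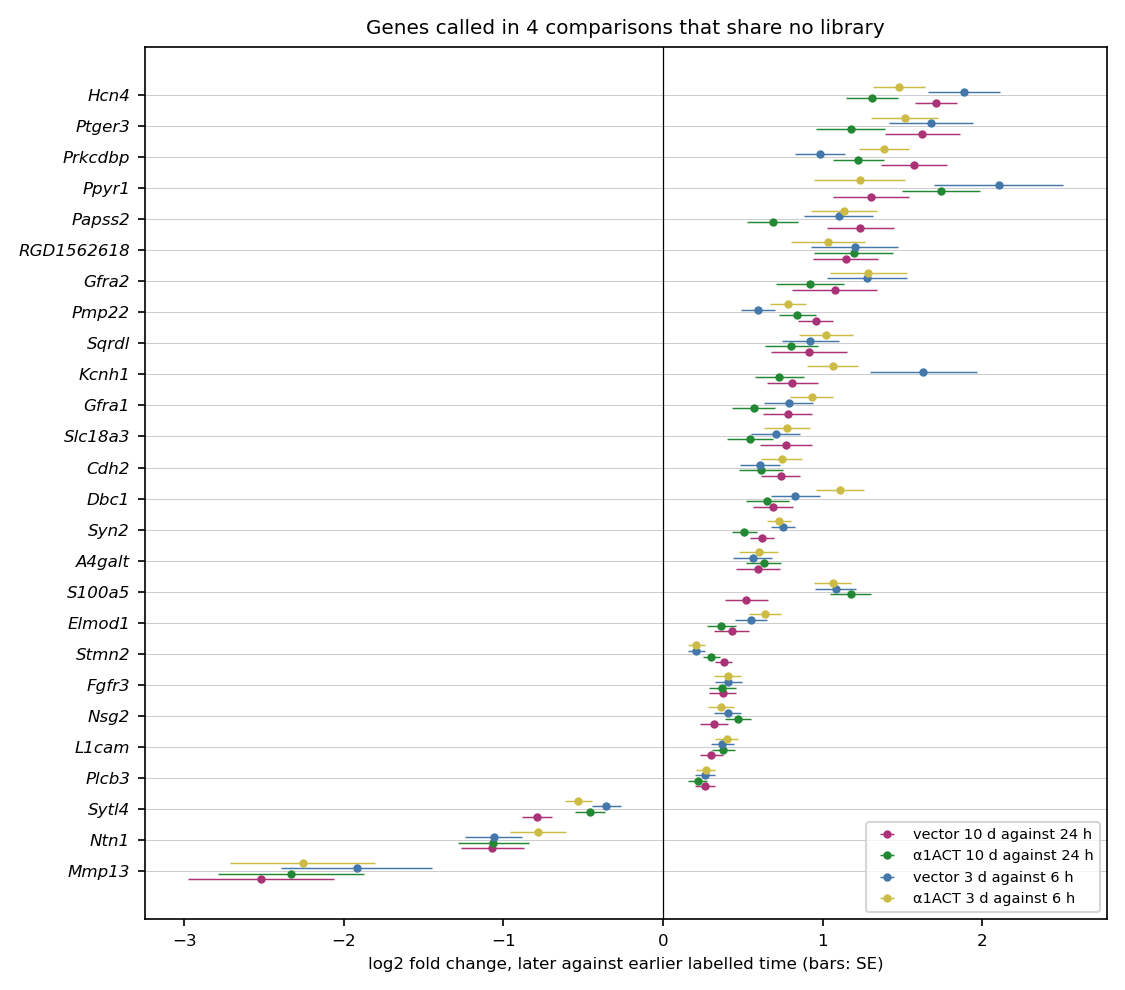
Log2 fold changes with SE (bars) of the 26 genes called in the same direction in 4 comparisons that share no library, for the later against the earlier labelled time. Hcn4 lies between 1.31 and 1.88 and Mmp13 between -2.52 and -1.92.

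Few genes passed a test of the difference between this pair and another. The interaction was called for 7 genes (0.07%; 1 above 0, 0.01%) against α1ACT 10 d, for 23 (0.23%; 6 above 0, 0.06%) against vector 3 d and for 0 against α1ACT 3 d by edgeR, where 953 genes had an unadjusted p under 0.05, DESeq2 called 24 and limma-voom 0. Ncald, a neuronal calcium sensor, fell here from 267, 217 and 252 CPM to 174, 132 and 164 CPM (-0.65 ± 0.08; adjusted p = 3.86e-05). In vector 3 d against 6 h it differed by 0.18 ± 0.09, an interaction of -0.83 ± 0.12 (adjusted p = 0.00341) that was called without each single library. Nefm rose here by 0.67 ± 0.10 and differed by -0.03 ± 0.10 there, an interaction of 0.69 ± 0.14 (adjusted p = 0.0361). That interaction was not called without 24 h replicate 1 (0.0886), 24 h replicate 3 (0.141) or 10 d replicate 2 (0.146). Hsp90b1 and Hspa5, called here, differed by -0.10 to 0.03 and by -0.08 to -0.04 in the other 3 pairs, and no interaction was called for either.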

How the data were processed

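Total RNA of PC12 cells was sequenced in 24 stranded, ribosomal RNA-depleted libraries, of which the 3 labelled vector 24 h and the 3 labelled vector 10 d are compared here. The authors deposited whole-number read counts per gene symbol for each library. The submitters' processing notes name TopHat2 2.0.10, HTSeq 0.5.4p5, Picard 1.117, FastQC 0.11.2 and edgeR as tools and rn5 as build. For the counting, strand setting and annotation were not given in the sources used here, so reads of genes that overlap on opposite strands, or that have near-identical copies, are uncertain. Groups were taken from the labels, and file names entered only as the other reading.

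The 5 summary lines of each table, in which reads outside genes made up 50% to 51.2% in the 6 libraries, were left out. Counts of 24 libraries in 8 groups were fitted together with edgeR 4.0.16 in R 4.3.3: TMM factors, 1 coefficient per group, filter by group at a minimum count of 10 and total of 15, quasi-likelihood F-test, and Benjamini-Hochberg adjustment over 9994 genes at a threshold of 0.05. Every adjusted p is of that test unless another tool is named. SEs were derived from the log2 fold change and F. Differences between pairs were interaction contrasts in the same fit. Low values limit precision: a floor of 3 counts stood at 0.206 to 0.28 CPM, and such floors cover counting error only. The script was tested on simulated data.

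Named genes were the 12 largest rises and falls of at least 2 CPM without overlap, up to 4 called members per list and any going the other way, 4 genes of earlier work and up to 5 per interaction. Members and lists were chosen with earlier results of these data known. Alternatives were RLE factors, library sizes, no filter, a filter at 1 CPM in 3 libraries, DESeq2 1.42.0, limma-voom 3.58.1, the 6 libraries alone, a replicate block, and each library or replicate number left out. The ER stress element and the counts of genes called in every setting were added after seeing the data. Some genes and 1 gene list are not reported here.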

Additional observations from a re-analysis of the deposited data

Results flagged for a closer look

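Interactions test whether the difference between labelled times differed between this pair and another, by edgeR's quasi-likelihood test. Of the 7 genes called against α1ACT 10 d and the 23 against vector 3 d, 10 are given. They are the 5 of largest interaction in each, among genes of at least 2 CPM on average. Called genes of smaller interaction were left out, whatever their adjusted p. Against α1ACT 10 d and 24 h, the interaction was 0.59 ± 0.12 for Amotl2, -0.57 ± 0.11 for Ero1l, -0.66 ± 0.13 for Pgf, -0.58 ± 0.11 for Prcp and -0.49 ± 0.09 for S100a1, each with an adjusted p of 0.0442. Each of these 5 lost its call in 4 of the 6 single leave-outs. Here Ero1l fell by 0.51 on the log2 scale and Amotl2, an angiomotin-like junction protein, rose by 0.51, whereas in the α1ACT pair they differed by 0.06 and -0.09.

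Against vector 3 d and 6 h, the interaction was -0.68 ± 0.14 for Agfg2 and 0.69 ± 0.15 for Fat4 (adjusted p = 0.0426), -0.83 ± 0.12 for Ncald (adjusted p = 0.00341), and 0.69 ± 0.14 for Nefm and -0.81 ± 0.17 for S100a3 (adjusted p = 0.0361). Agfg2, Fat4 and S100a3 lost their call in 4 of the 6 single leave-outs and Nefm in 3, while Ncald kept it in all 6, with an adjusted p of at most 0.0259. Fat4, an atypical cadherin, was not called in this pair itself (0.28 ± 0.10; adjusted p = 0.1).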

How the results depend on the processing

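The 744 calls numbered 736 to 831 under RLE factors, library sizes, no filter, the filter at 1 CPM, DESeq2 and limma-voom. They numbered 314 with the 6 libraries alone, and 253 to 899 without 1 library. With a replicate number left out of all 8 groups they ranged from 79 to 1125. Each such fit has fewer samples. Without number 1, 2 or 3, the 11 neurite genes called higher became 3, 13 and 2. The 5 catecholamine genes called lower became 0, 5 and 1. The share of calls that were higher moved from 57.7% to 67.7% without 10 d replicate 1 and 72.6% without number 1. Interactions with α1ACT 10 d (7) became 1 with RLE factors, 0 with library sizes, 43 with no filter, 62 with DESeq2, 0 with the libraries compared alone and 0 to 145 with libraries left out. Those with vector 3 d (23) became 52 with no filter, 67 with DESeq2, 7 with the libraries compared alone and 0 to 124 with libraries left out. Those with α1ACT 3 d (0) became 24 with no filter, 24 with DESeq2 and 0 to 144 with libraries left out. The cause was not tested. Of 104 called named genes, 17 kept their call and direction in all 17 alternatives. Cacna1a, not called, changed sign with limma-voom (-0.0025) and ranged from -0.192 to 0.199 with libraries left out. Grn, not called either, ranged from -0.054 to 0.0068. Fat4 was called without number 2 (0.298, adjusted p = 0.0187 by edgeR).

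The replicate numbers were not taken as pairs, since deviations of same-numbered 24 h and 10 d libraries correlated at -0.021, 0.095 and 0.096, under a minimum of 0.1. Over all pairs of groups the median was 0.092 (up to 0.342) for the same number and -0.061 for different numbers. Libraries numbered 2 correlated positively in every pair of groups, at 0.0392 to 0.342. The main fit does not model what same-numbered libraries share. A replicate block gave 963 calls, which included all 744, and 31, 65 and 5 interactions with α1ACT 10 d, vector 3 d and α1ACT 3 d.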
